A study of Rattus norvegicus with 8 samples.

Results

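The genes described here are 4 matrix metalloproteinases, Mmp2, Mmp3, Mmp9 and Mmp14, and 3 of their tissue inhibitors, Timp1, Timp2 and Timp3. They were chosen by gene name on a rat whole-genome array. The 7 genes had 8 probes, because Mmp2 had 2, out of 18365 named genes with 23400 probes. Male Sprague-Dawley rats received moderate fluid percussion brain injury, a model of traumatic brain injury (TBI) in which a pressure pulse strikes the exposed dura, or sham surgery, or no treatment at all (naive). At 24 h, CA3 pyramidal neurons of the hippocampus were collected cell by cell with a laser from sections stained with Fluoro-Jade, a dye that marks degenerating neurons. In injured rats the stained neurons were called dying and unstained neurons lying beside them were called surviving. Each of the 8 arrays carried amplified RNA of 1 pool of neurons from several rats, with 2 arrays per group, and surviving and dying pools may have shared rats, but which arrays did is not given in the sources used here. The age of the rats is likewise not given in the sources used here.

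Matrix metalloproteinases are zinc enzymes that cut the proteins of the extracellular matrix and of the cell surface. Most are secreted as inactive precursors and are switched on by other proteases, while the tissue inhibitors (TIMPs) bind the active site and block it. In injured brain the family is known for opening the blood-brain barrier and remodelling the matrix around neurons, and much of it comes from glia, vessel cells and leukocytes as well as from neurons.

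Levels are given as log2 of a probe's processed signal over the median of all probes on that array, so 0 is the array's median and 1 unit is a doubling. Probes differ in how brightly they report, so levels of different member probes were not compared. For marker lists, sums and the gene with the highest mean level over the arrays are given only to show which probe weighs most. The median signal was 27.2 and 22.7 on the naive arrays, 16.5 and 16.4 on the sham arrays, 52.2 and 48.2 on the surviving arrays, and 19.2 and 52.6 on the dying arrays. Dying replicate 1 was thus dimmer than the other injured arrays. Naive and sham arrays shared a slide and surviving and dying arrays another, so an effect of injury and one of the slide cannot be separated where injured rats are set against sham. The labels name 2 amplification kits as alternatives without saying which array had which, and the published methods name MessageAMP II alone. The number of arrays limits the precision, and p-values measure the spread between these arrays, which may be technical. In pooled RNA, fewer cells of a type and less RNA per cell cannot be told apart.

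Markers of the neurons named in the labels were present on every array. All 8 measured markers (of 11 listed) of CA3 pyramidal neurons were well above background on every array except dying replicate 1, where Grik4 was not. Their summed signal, in multiples of the array median, was 5783 and 8239 on the naive, 10878 and 9446 on the sham, 6120 and 5926 on the surviving, and 3059 and 3312 on the dying arrays. Nrgn (neurogranin), the brightest, made up most of the sum, which was lowest on both dying arrays. The median log2 level of the list was 4.01 and 5.17 on the naive, 4.94 and 5.48 on the sham, 6.14 and 5.62 on the surviving, and 1.92 and 5.49 on the dying arrays, so only dying replicate 1 was low by that measure. Of this list Snap25 fell by 2.67 in surviving (adjusted p = 0.0370) and by 3.83 in dying neurons (adjusted p = 0.0050), and Nrgn fell by 1.47 in dying neurons (adjusted p = 0.0253). With 75th percentile scaling only the Snap25 call in dying neurons held among these 3. With median scaling all 8 markers were below sham in dying neurons, most without passing. Their median difference was -2.03 in dying and -0.07 in surviving minus sham, beside -0.46 and -0.43 over all tested probes. Genes of other cell types were present as well, as described at the end.

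Against sham, the inhibitor Timp1 rose in surviving neurons, and Timp1, Timp2 and the membrane-bound protease Mmp14 rose in dying neurons. No member probe was called lower. In surviving neurons 1 of 7 tested member probes passed an adjusted p of 0.05 in limma, against 18.9% of all 26905 probes tested and 6.82% counted as higher in surviving. Without adjustment 2 of 7 passed, against 36.9%. Both surviving arrays lay above both sham arrays for 6 of the 7, against 28.0% of all probes. Among the 6 was Timp3, which was tested only because it was well above background on the surviving arrays, so the filter favoured its direction. In dying neurons 3 of 6 tested member probes passed, against 44.1% of 25623 probes and 15.1% counted as higher in dying. The same number passed without adjustment, against 54.3%. Both dying arrays lay above both sham arrays for 5 of the 6, against 30.8%. Surviving minus sham and dying minus sham share the sham arrays, so their values are given side by side only.

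Between surviving and dying neurons no member passed the adjusted test. With limma 0 of 7 member probes passed the adjusted threshold, and neither did any of the 27391 probes tested (0%). Timp2 was the 1 member probe with an unadjusted p under 0.05, where 21.5% of all probes had one. Timp3 was above dying on both surviving arrays (1 of 7, against 30%), and Timp1 and Timp2 were below (2 of 7, against 21.7%). Here too Timp3 was tested only through the surviving arrays. Between sham and naive neurons 0 of 6 member probes passed in limma, with 0% of 20676 probes. Timp1 alone had an unadjusted p under 0.05 there, against 4.82% of all probes. Both sham arrays lay above both naive arrays for 2 of the 6, Timp1 and probe 2 of Mmp2, against 38.0%.

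**Figure D1:**
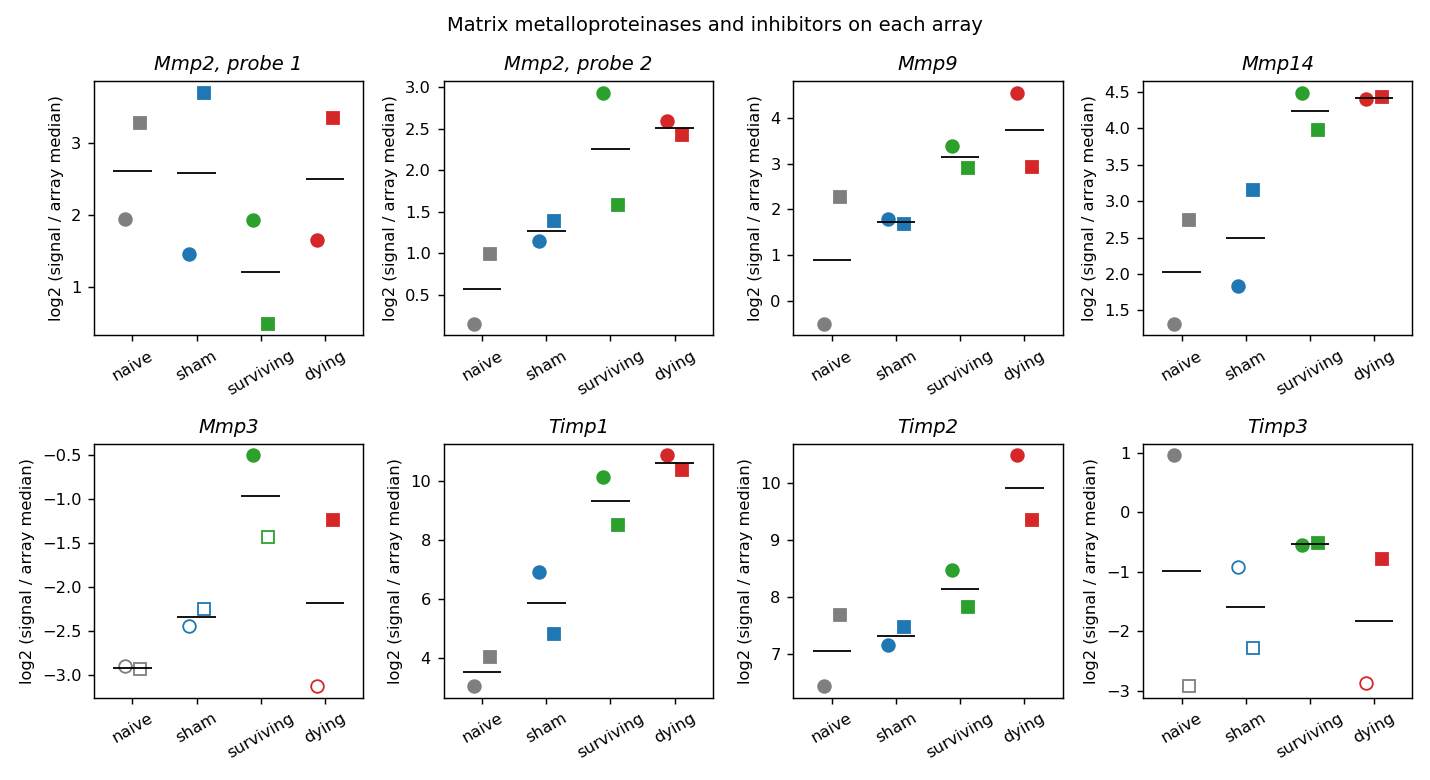
Each panel shows a probe, with the log2 ratio of its signal to the array median on the vertical axis and the 4 groups on the horizontal axis. Circles are replicate 1 and squares replicate 2, open symbols mark arrays where the probe was not well above background, and bars are group means. Timp1 reached 10.88 on a dying array from a lowest value of 3.02 on a naive array.

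Mmp14, also called MT1-MMP, sits in the cell membrane, where it cuts matrix proteins and activates the Mmp2 precursor. Its log2 level was 1.32 and 2.74 on the naive arrays, 1.84 and 3.16 on the sham arrays, 4.49 and 3.98 on the surviving arrays, and 4.4 and 4.43 on the dying arrays. All 4 arrays of injured rats lay above all 4 arrays of uninjured rats, while naive and sham values interleaved and so did surviving and dying values. Dying neurons exceeded sham by 1.92 (SE 0.64), or 3.78-fold, with an adjusted p of 0.0416 and both dying arrays above both sham arrays. Surviving neurons exceeded sham by 1.74 (SE 0.65), which did not pass (adjusted p = 0.0948). The order of means was naive 2.03, sham 2.5, surviving 4.23 and dying 4.42, and neither the first pair of neighbours (0.47, adjusted p = 0.892) nor the last pair (surviving minus dying -0.18, adjusted p = 0.902) differed beyond the spread. The dying call was lost with any of the 6 sham, surviving or dying arrays left out. Its adjusted p was then 0.261 without sham replicate 1, 0.0533 without sham replicate 2, 0.0636 without either surviving array, 0.12 without dying replicate 1 and 0.0850 without dying replicate 2. The difference without sham replicate 1 was 1.26. It was also lost without the filter on dim probes (adjusted p = 0.0656), with only the 4 arrays compared (adjusted p = 0.0530) and with normexp background correction (0.98, adjusted p = 0.599).

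Mmp9, or gelatinase B, digests denatured collagen and basement membrane and is stored in the granules of neutrophils. Its level was -0.49 and 2.27 on the naive arrays, 1.80 and 1.67 on the sham arrays, 3.39 and 2.91 on the surviving arrays, and 4.55 and 2.93 on the dying arrays. The 4 arrays of injured rats were again the 4 highest, naive replicate 1 stood far below its partner, and dying replicate 1 stood above all others. The difference from sham was 1.41 (SE 0.91, adjusted p = 0.289) for surviving and 2.0 (SE 0.90, adjusted p = 0.10) for dying neurons, and neither passed. Means ran from naive 0.89 over sham 1.74 and surviving 3.15 to dying 3.74, with no neighbours apart beyond the spread. The probe was spotted 10 times per array. With either naive array left out, which leaves the dying minus sham difference as it was, that difference had an adjusted p of 0.0350. Dying minus sham was 1.19 without dying replicate 1 and 2.81 without dying replicate 2. On naive replicate 1, 6 of the probe's spots were well above background.

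Mmp2, or gelatinase A, is a broadly expressed basement membrane protease, and its 2 probes disagreed. Probe 1, spotted 10 times, read 1.95 and 3.28 on the naive arrays, 1.46 and 3.70 on the sham arrays, 1.93 and 0.49 on the surviving arrays, and 1.66 and 3.34 on the dying arrays. High and low values occurred within naive, sham and dying alike, the surviving arrays overlapped sham and dying and lay just below naive, and the order of means was surviving 1.21, dying 2.5, sham 2.58 and naive 2.61 with no neighbours apart beyond the spread. Probe 2, a single spot, read 0.15 and 0.99 on the naive arrays, 1.14 and 1.39 on the sham arrays, 2.94 and 1.58 on the surviving arrays, and 2.59 and 2.42 on the dying arrays. Here the injured arrays were the 4 highest and naive the 2 lowest. Probe 2 differed from sham by 0.99 (SE 0.57, adjusted p = 0.241) in surviving and 1.24 (SE 0.57, adjusted p = 0.106) in dying neurons. Probe 1 differed from sham by -1.36 (SE 0.95, adjusted p = 0.326) in surviving neurons. In dying neurons its difference was -0.08 (SE 0.94, adjusted p = 0.951), and that sign turned with 75th percentile scaling (0.65), quantile normalization (0.56), normexp background correction (0.14), the deposited series values (0.72) and the added scaling (0.93). Over the 8 arrays the probes had a Pearson r of -0.03, with the slide shared by 4 arrays each. So no direction is given for the gene. What part of the transcript each probe reads was not analysed here.

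Mmp3, or stromelysin 1, degrades proteoglycans and can activate Mmp9. It was well above background on only 2 arrays, surviving replicate 1 (-0.51) and dying replicate 2 (-1.24), and it was tested in no comparison. The other arrays read between -3.13 and -1.44, and the signal was at most 1.95 times the local background. No fold is given for it.

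**Figure D2:**
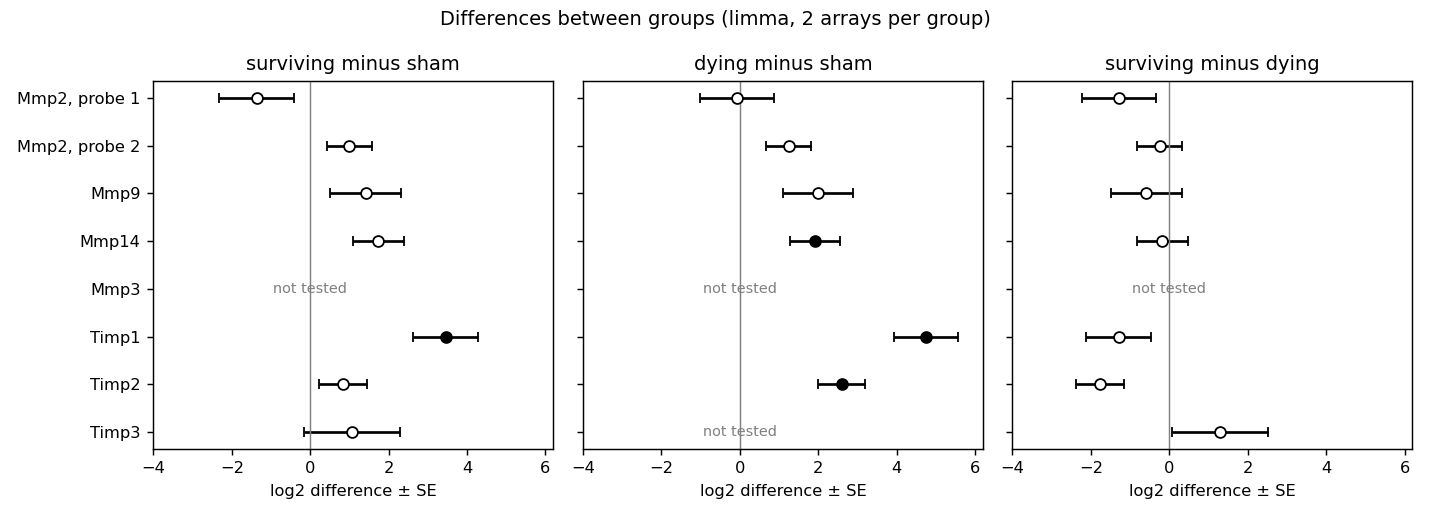
Points are differences between group means on the log2 scale and bars are standard errors from limma, with 2 arrays per group. Filled points passed an adjusted p of 0.05, which were Timp1 in surviving minus sham (3.46) and Timp1 (4.75), Timp2 (2.60) and Mmp14 (1.92) in dying minus sham. Mmp2 probe 1 in dying minus sham (-0.08) turned positive under 5 other settings of scaling or background, and normexp background correction turned the sign of surviving minus dying for Timp1, Timp3, Mmp9, Mmp14 and Mmp2 probe 2.

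Timp1 is the inducible inhibitor of the family, which binds most metalloproteinases including Mmp9 but blocks Mmp14 poorly. It showed the widest range of all members. Its level was 3.02 and 4.01 on the naive arrays, 6.93 and 4.81 on the sham arrays, 10.14 and 8.52 on the surviving arrays, and 10.88 and 10.37 on the dying arrays. The 4 groups stepped upward with no overlap between neighbours, and within sham and surviving the arrays lay 2.12 and 1.62 apart. Dying neurons exceeded sham by 4.75 (SE 0.82), or 26.9-fold (adjusted p = 0.0044), and both dying arrays lay above both sham arrays. Surviving neurons exceeded sham by 3.46 (SE 0.83), or 11-fold (adjusted p = 0.0291), again on both arrays. The steps at either end did not pass. Sham exceeded naive by 2.35 (SE 0.82, unadjusted p = 0.0205 in limma, adjusted p = 0.882), and surviving minus dying was -1.29 (SE 0.83, adjusted p = 0.400), a sign that turned with normexp background correction (0.22).

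The dying call for Timp1 held with each array left out in turn (3.69 to 5.81, adjusted p 0.0073 to 0.0321). The surviving call was lost when any of the 4 arrays compared was left out. It became 4.52 (adjusted p = 0.0666) without sham replicate 1, 2.40 (adjusted p = 0.153) without sham replicate 2, 2.65 (adjusted p = 0.167) without surviving replicate 1 and 4.27 (adjusted p = 0.0997) without surviving replicate 2. Both calls were also lost with normexp background correction, where the differences were 4.45 (adjusted p = 0.508) and 4.23 (adjusted p = 0.519) and limma called 0 of all probes, with 2494 and 2342 at an unadjusted p under 0.05. Under the other settings that kept all arrays of the groups compared, both calls held, with the highest adjusted p at 0.0435 for surviving and 0.0115 for dying neurons.

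**Figure D3:**
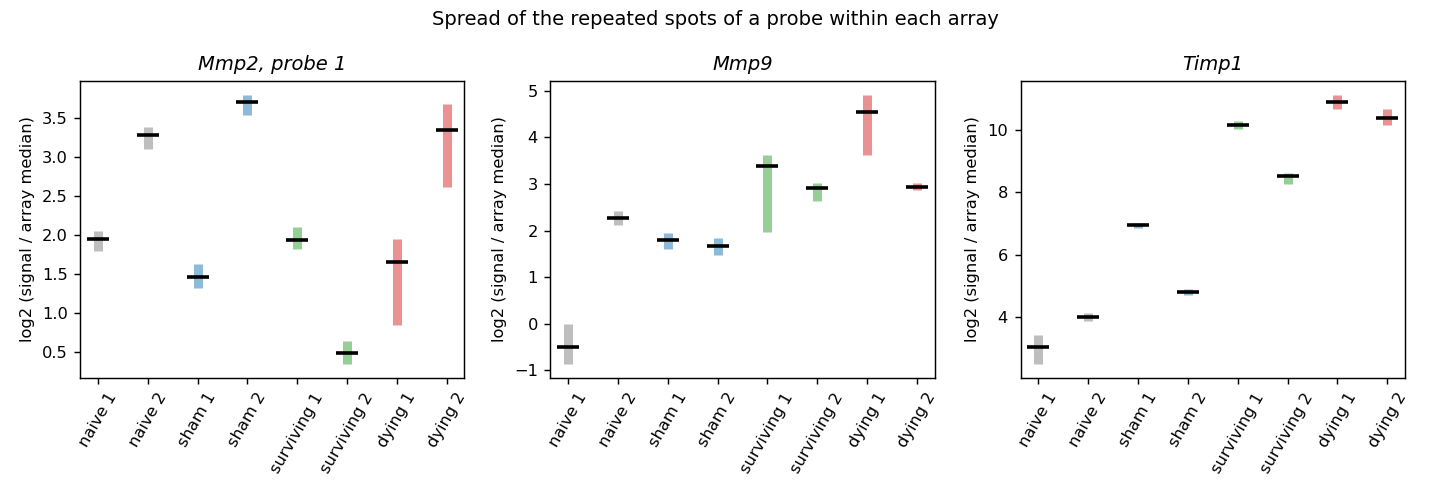
The 3 member probes spotted 10 times per array are shown, with the log2 ratio of signal to array median on the vertical axis and the 8 arrays on the horizontal axis. Coloured bars run from the lowest to the highest spot and black lines mark the level used. For Timp1 the spots of an array spread far less than the gap between the arrays of the group in sham (2.12) and surviving (1.62), but in dying, where the gap was 0.51, the bars nearly met.

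Repeated spots showed how precisely an array reads a probe. The standard deviation between the 10 spots was 0.05 to 0.29 for Timp1, 0.04 to 0.49 for Mmp9 and 0.08 to 0.36 for Mmp2 probe 1. The gap between the 2 arrays of a group reached 2.12 for Timp1 in sham, 2.76 for Mmp9 in naive and 2.24 for Mmp2 probe 1 in sham. These largest gaps between replicate arrays were several times the spread between spots. Signal over local background ran from 5.11 to 1317 for Timp1 and from 44.3 to 737 for Timp2, but only from 1.56 to 11.5 for Mmp9 and from 1.99 to 19.1 for Mmp14.

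Timp2 inhibits the gelatinases and, bound to Mmp14, takes part in activating the Mmp2 precursor. Its level was 6.43 and 7.68 on the naive arrays, 7.16 and 7.47 on the sham arrays, 8.46 and 7.82 on the surviving arrays, and 10.48 and 9.35 on the dying arrays. Both dying arrays were the highest, surviving lay just above the rest, and sham lay within the naive range. Dying neurons exceeded sham by 2.60 (SE 0.61), or 6.05-fold (adjusted p = 0.0120), on both arrays. Surviving neurons exceeded sham by 0.83 (SE 0.61, adjusted p = 0.355). The order of means was naive 7.06, sham 7.32, surviving 8.14 and dying 9.91, with no neighbours apart by the adjusted test. The gap between surviving and dying was -1.77 (SE 0.61, unadjusted p = 0.0206 in limma, adjusted p = 0.164). It passed only without dying replicate 2 (-2.34, adjusted p = 0.0476), when 6002 of all probes passed against 0 with all arrays. The dying minus sham call was lost without sham replicate 1 (adjusted p = 0.0862), sham replicate 2 (adjusted p = 0.0546) or dying replicate 1 (adjusted p = 0.0612), and with normexp background correction (adjusted p = 0.548).

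Timp3 is bound to the matrix and also inhibits several ADAM proteases. It was well above background on 4 arrays, naive replicate 1 (0.96), surviving replicates 1 (-0.54) and 2 (-0.51) and dying replicate 2 (-0.78). The other 4 arrays read between -2.93 and -0.92, so no ordering of the groups can be read. Surviving minus sham was 1.07 (SE 1.23, adjusted p = 0.553) and surviving minus dying 1.29 (SE 1.23, adjusted p = 0.575), the second turning to -0.05 with normexp background correction. No fold is given for it.

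Promoters are shown for Timp1 and Timp2, the members that rose and have an entry in the table of RefSeq promoters (build GRCr8, 250 bases before to 50 after the annotated start). The table matched 4 of the 7 members, Timp1, Timp2, Timp3 and Mmp3. The Timp1 window is chrX:3771073-3771372 on the minus strand, with its start 1456 bases inside the annotated gene, and the Timp2 window is chr10:104089165-104089464 on the minus strand, with its start at the gene's end. Sequences run 5′ to 3′ on the gene's strand and capitals mark matches to the AP-1-like and Ets-like motifs.
Timp1: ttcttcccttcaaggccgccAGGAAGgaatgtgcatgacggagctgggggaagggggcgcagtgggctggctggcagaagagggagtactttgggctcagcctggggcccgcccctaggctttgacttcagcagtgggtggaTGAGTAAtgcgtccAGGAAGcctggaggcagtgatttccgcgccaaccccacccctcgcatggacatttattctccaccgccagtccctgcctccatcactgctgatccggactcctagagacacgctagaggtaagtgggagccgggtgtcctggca
Timp2: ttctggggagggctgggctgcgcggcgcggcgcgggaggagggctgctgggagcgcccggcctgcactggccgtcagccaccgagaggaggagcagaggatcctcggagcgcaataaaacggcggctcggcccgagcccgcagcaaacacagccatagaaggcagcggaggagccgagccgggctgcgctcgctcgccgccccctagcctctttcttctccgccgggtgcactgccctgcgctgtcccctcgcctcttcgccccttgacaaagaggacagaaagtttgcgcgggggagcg
Motifs were sought on both strands. They were the AP-1 site TGAGTCA (in 4.63% of 33469 promoters), the AP-1-like word TGAGTAA (2.90%), which differs from it in 1 letter, the Ets-like core AGGAAG (34.5%) and the TATA box TATAAA (14.2%). The Timp1 window held TGAGTAA at -108 and AGGAAG at -230 and -94, counted from the start. The windows of Timp2 and Timp3 held none of the 4 motifs. The window of Mmp3, the member near background, held all 4, with TGAGTCA at -71, TGAGTAA at -144, AGGAAG at -206 and TATAAA at -32. A match is a description and binding was not measured.

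Among member probes well above background on all 8 arrays, those of Timp1, Timp2, Mmp9 and Mmp14 and probe 2 of Mmp2 varied together, with Pearson r between 0.83 for Mmp14 with Timp2 and 0.92 for Mmp2 probe 2 with Mmp14. Mmp2 probe 1 had r between -0.30 and 0.02 with all of these. These r values are over 8 arrays that fall on 2 slides by injury, and they describe the arrays. Of 9159 named probes well above background on every array, the closest patterns to Timp1 were LOC246266 (r = 0.99), LOC690374 (0.98) and Ril (0.98). Those closest to Timp2 were C1qg (r = 0.997), RGD1566135 (0.99) and Cxcl1 (0.99). For Mmp9 they were RGD1305781 (r = 0.99), LOC501052 (0.98) and Abhd4 (0.98), and for Mmp14 Rab11fip2 (r = 0.99), Gkap1 (0.98) and RGD1559498 (0.97). Mmp2 probe 1 had no match above 0.87, reached by Enpp2 and by Wnt2b, with Ppap2c at 0.86. C1qg, an older symbol of C1qc in the microglia and macrophage list below, stood at 5.30 and 4.39 on the dying arrays. It lay between 1.66 and 3.50 on the rest.

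The sizes above depend on the reference chosen within each array. Scaled to the array median, the median of all tested probes was -0.43 in surviving minus sham and -0.46 in dying minus sham. With the 75th percentile as reference these medians became 0.36 and 0.26. Called probes were higher in surviving than sham for 36.2% and became so for 73.4%, and in dying neurons the share moved from 34.2% to 59.7%. Relative to the median of the probes tested, Timp1 stood 3.88 higher in surviving and 5.21 higher in dying than in sham neurons. On that relative scale Timp2 was 1.25 and 3.06 higher, Mmp14 2.16 and 2.38, Mmp9 1.84 and 2.46, and Mmp2 probe 2 1.42 and 1.71, in surviving and dying neurons respectively. Mmp2 probe 1 was -0.94 and 0.38. The median over the tested member probes was 1.07 in surviving minus sham and 1.96 in dying minus sham. The surviving median is the value of Timp3, which was dim in sham and tested only through the surviving arrays.

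With 75th percentile scaling more members passed. In surviving minus sham these were Mmp14 (2.52, adjusted p = 0.0273) and Mmp2 probe 2 (1.78, adjusted p = 0.0442) beside Timp1 (4.24, adjusted p = 0.0134). In dying minus sham Mmp9 (2.73, adjusted p = 0.0305) and Mmp2 probe 2 (1.97, adjusted p = 0.0169) joined the 3 named above. Of all probes, 21.0% passed in surviving minus sham and 46.1% in dying minus sham with that scaling. Timp2 in surviving minus sham passed with the deposited series values (1.71, adjusted p = 0.0454) and with the added scaling (1.80, adjusted p = 0.0391). There 21.7% and 23.8% of all probes passed.

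**Figure D4:**
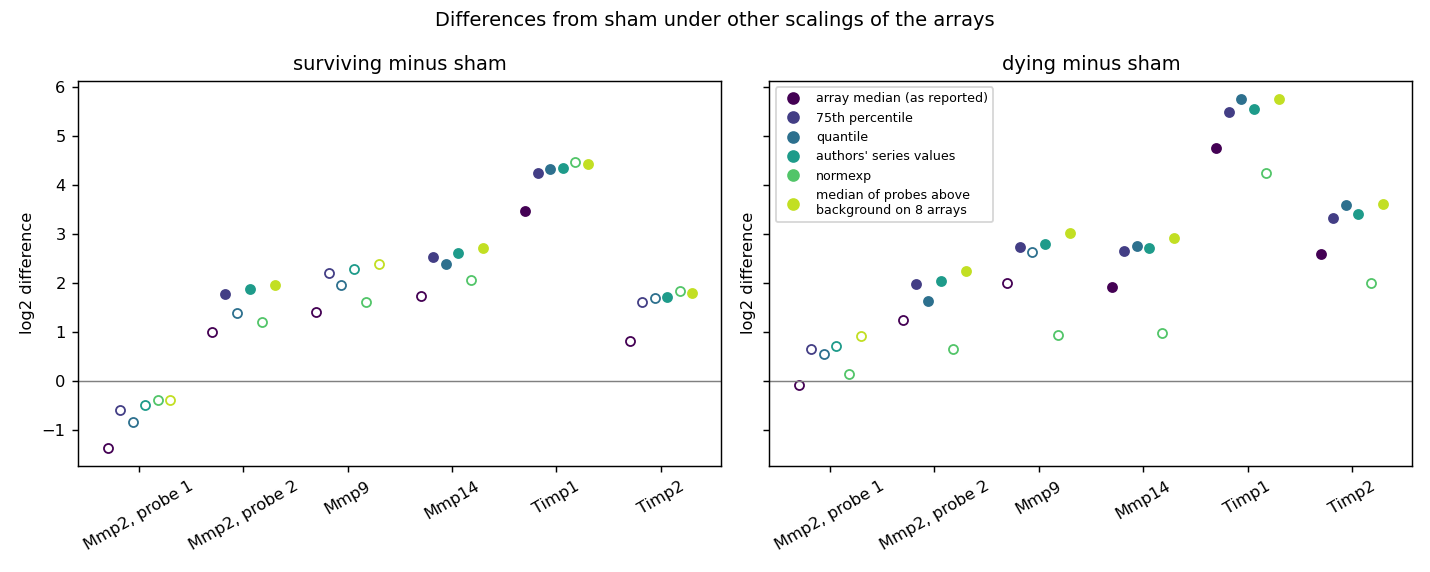
Each point is a member's difference from sham on the log2 scale under 1 of 6 ways to scale or background-correct the arrays, given by colour, and filled points passed an adjusted p of 0.05. Timp1 ran from 3.46 to 4.45 in surviving and from 4.23 to 5.76 in dying neurons. Mmp2 probe 1 changed sign in dying minus sham, from -0.08 to as much as 0.93.

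Other genes of the metalloproteinase system came from 5 lists of 90 genes, of which 83 had a probe. In surviving minus sham 6 were called higher and 10 lower among 59 tested, and in dying minus sham 11 higher and 13 lower among 54. These are 27.1% and 44.4% of the genes tested, beside 18.9% and 44.1% of all probes. None was called in surviving minus dying or sham minus naive by limma, where 5 of 60 and 1 of 43 had an unadjusted p under 0.05. With 75th percentile scaling the counts were 8 higher and 2 lower in surviving, and 19 higher and 5 lower in dying neurons. Of all probes, 4140 of 26905 and 7050 of 25623 were called higher with that scaling. No gene called with median scaling changed direction under the other 5 settings.

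Of the other proteases, Mmp1b was not well above background on either sham array. Surviving neurons exceeded sham at least 6.33-fold (adjusted p = 0.0063) and dying neurons at least 6.04-fold (adjusted p = 0.0025), on both arrays each. Such a bound sets the bright group's mean against the higher, per array, of the dim probe's own level and the lowest level of any probe well above background. Genes dim on both sham arrays, here Mmp1b, Nid1, Il1b, Tgfb1, Flt1 and Mpo, were tested only through the injured arrays, so the filter favoured their direction. Mmp16, a membrane-type enzyme like Mmp14, went the other way, with -1.70 in surviving (SE 0.42, adjusted p = 0.0308) and -1.69 in dying neurons (SE 0.42, adjusted p = 0.0148), though neither passed with 75th percentile scaling. Adam10, the main alpha-secretase of neurons, fell by 2.75 (SE 0.42, adjusted p = 0.0084) in surviving and by 3.57 (SE 0.42, adjusted p = 0.0015) in dying neurons, from 5.08 and 5.01 on the sham arrays. Adam9 fell by 2.83 (adjusted p = 0.0439) and by 4.18 (adjusted p = 0.0056), sizes that rest in part on dim readings, since it was well above background on only 1 surviving and 1 dying array. It was tested only through the sham arrays, so the filter favoured its direction. Both Adam10 calls held with 75th percentile scaling, and for Adam9 only that in dying neurons did.

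Lcn2, which forms a complex with Mmp9 and protects it from breakdown, rose by 4.54 (SE 0.64, adjusted p = 0.0062) in surviving and 5.28 (SE 0.63, adjusted p = 0.0015) in dying neurons. It read 3.28 and 2.43 on the sham arrays, 7.3 and 7.50 on the surviving arrays, and 8.88 and 7.39 on the dying arrays, so surviving and dying overlapped. Cd44, a hyaluronan receptor that docks Mmp9 at the cell surface, rose by 4.16 in dying neurons (SE 0.84, adjusted p = 0.0071). Serpini1 (neuroserpin), an inhibitor of tissue plasminogen activator in neurons, fell by 2.03 in surviving (SE 0.46, adjusted p = 0.0245) and by 3.17 in dying neurons (SE 0.46, adjusted p = 0.0026). Serpine2, a thrombin and plasminogen activator inhibitor, fell by 2.22 in surviving (adjusted p = 0.0219) and by 1.71 in dying neurons (adjusted p = 0.0226). The proprotein convertase Pcsk6 fell by 2.20 (adjusted p = 0.0249) and by 1.95 (adjusted p = 0.0162). Pcsk5, another convertase, fell by 2.67 in dying neurons (adjusted p = 0.0201). Of these falls, those of Serpine2 in surviving and Serpini1 in dying neurons held with 75th percentile scaling. Among the 12 and 11 tested genes of this list, 1 was higher and 3 lower in surviving, and 2 were higher and 6 lower in dying neurons. Of all probes, 18.9% and 44.1% were called, 6.82% and 15.1% as higher. With 75th percentile scaling 2 of the list were higher and 1 lower in surviving, and 3 higher and 1 lower in dying neurons. Of all probes, 4140 of 26905 and 7050 of 25623 were then called higher.

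Of matrix proteins that the family cuts, Spp1 (osteopontin) rose against sham, where replicate 1 was not well above background. It read -2.39 and 0.66 on the sham arrays, 5.21 and 2.43 on the surviving arrays, and 4.69 and 5.99 on the dying arrays. Its 2 injured groups overlapped each other and neither overlapped sham, with differences of 4.68 (SE 1.19, adjusted p = 0.0343) and 6.2 (SE 1.17, adjusted p = 0.0058), sizes that rest in part on the dim sham reading. Spp1 was tested only through the injured arrays, so the filter favoured its direction. The surviving call was lost with quantile normalization (adjusted p = 0.0543). Fibronectin (Fn1) rose by 2.16 (SE 0.70, adjusted p = 0.0367) and nidogen (Nid1), dim in sham, was at least 1.57-fold higher (adjusted p = 0.0124) in dying neurons, whereas the perineuronal proteoglycan Bcan fell by 2.18 (SE 0.48, adjusted p = 0.0116), a call lost with the series values (adjusted p = 0.229) and the added scaling (adjusted p = 0.0730). In surviving neurons Reln (reelin) fell by 3.24, Vcan (versican) by 3.02 and Agrn (agrin) by 1.75, with adjusted p of 0.0326, 0.0384 and 0.0385. Vcan was not well above background on surviving replicate 2, so the size of its fall rests on a dim reading. It was tested there only through the sham arrays, so the filter favoured its direction. None of these 3 calls held with 75th percentile scaling. Agrn also fell in dying neurons, by 1.46 (adjusted p = 0.0356), again not with that scaling. In all, 1 of 19 tested substrates was higher and 3 lower in surviving, and 5 were higher and 3 lower in dying neurons. Of all probes, 18.9% and 44.1% were called, 6.82% and 15.1% as higher. With 75th percentile scaling 2 substrates were higher and 0 lower in surviving, and 7 higher and 1 lower in dying neurons. Of all probes, 4140 of 26905 and 7050 of 25623 were then called higher.

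Inducers of metalloproteinase and TIMP genes were called in both directions with median scaling. The cytokine Il1b, not well above background on sham arrays, exceeded sham at least 1.85-fold in surviving (adjusted p = 0.0387) and at least 8.39-fold in dying neurons (adjusted p = 0.0023). For Tgfb1, likewise dim in sham, the bounds were 2.0-fold (adjusted p = 0.0350) and 4.43-fold (adjusted p = 0.0039). Fosb, a component of AP-1, rose by 1.91 (SE 0.44, adjusted p = 0.0267) and by 1.75 (SE 0.45, adjusted p = 0.0162). The transcription factor Egr1 fell by 1.81 (SE 0.48, adjusted p = 0.0374) and by 2.46 (SE 0.48, adjusted p = 0.0062), and its surviving call was lost under all 5 other settings (adjusted p = 0.0859 with 75th percentile scaling). Of 11 and 10 tested inducers, 3 were higher, among them the dim Il1b and Tgfb1, and 1 lower in each comparison with median scaling. Of all probes, 18.9% and 44.1% were called, 6.82% and 15.1% as higher. In dying neurons 75th percentile scaling gave 4 inducers higher and 1 lower, where 7050 of all 25623 probes were called higher. In surviving neurons 75th percentile scaling gave 3 higher and 0 lower, where 4140 of all 26905 probes were called higher. Quantile normalization lost the surviving calls of Il1b (adjusted p = 0.0949) and Tgfb1 (adjusted p = 0.0626).

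Markers of other cells also differed between the groups. Of the microglia and macrophage list 11 of 13 genes were matched to a probe by symbol. C1qc, which the array carries under its older symbol C1qg, was not matched and is in none of the counts and sums. In dying minus sham 6 of 9 tested genes were higher, and in surviving minus sham 0 of 10 were called by limma. Of all probes, 15.1% and 6.82% were called higher in these comparisons. With 75th percentile scaling 3 of those 10 passed in surviving neurons, where 4140 of all 26905 probes were called higher. The summed signal of the list, in multiples of the array median, was 130 and 275 on the naive, 277 and 253 on the sham, 356 and 369 on the surviving, and 2053 and 1171 on the dying arrays. Both dying sums were far above all others. The median log2 level of the list was 0.97 and 1.61 on the naive, 2.52 on both sham, 4.36 and 3.55 on the surviving, and 5.14 and 5.48 on the dying arrays, so by that measure the surviving arrays lay between sham and dying. C1qa had the highest mean level, and Cd68, Tyrobp, C1qa, C1qb, Cd74 and Cd14 were the genes that rose. Aif1 (-0.14, adjusted p = 0.830) and Csf1r (-0.34, adjusted p = 0.642) did not, and Aif1 was lower than sham in surviving neurons without passing (-1.59, adjusted p = 0.0574). Ptprc was well above background on surviving replicate 2 only. Cx3cr1 and Itgam were not well above background on any naive or sham array.

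Neutrophils are the classical store of Mmp9. Of their list 6 of 8 symbols had a probe, among them Il8rb, an older symbol of the gene also listed as Cxcr2. The 2 tested in dying minus sham entered through the dying arrays alone, so the filter favoured their direction. These, S100a8 and S100a9, were at least 10.6-fold and at least 5.04-fold higher in dying than in sham neurons (adjusted p = 0.0022 and 0.0492). With quantile normalization 1 of the 2 was called, and with normexp background correction 0. Mpo, not well above background on either sham array, passed as higher in surviving neurons (adjusted p = 0.0414), and no fold is given for it. It too was tested only through the injured arrays. The summed signal was 4.29 and 0.87 on the naive, 1.98 and 1.31 on the sham, 3.76 and 2.38 on the surviving, and 11.3 and 18.8 on the dying arrays, with S100a9 highest in mean log2 level over the 8 arrays and S100a8 at 2.69 and 3.67 on the dying arrays. Fpr1 was not well above background on any array, and Ngp and Il8rb were so on at most 2.

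The vessel list, with 10 of 11 genes measured, summed to 127 and 155 on the naive, 188 and 165 on the sham, 98.6 and 88.2 on the surviving, and 417 and 160 on the dying arrays. Kdr was its brightest gene and Tek was not well above background on any array. In dying minus sham its members went both ways, with Flt1 (adjusted p = 0.0050) and Vwf (adjusted p = 0.0186) called higher and Slco1c1 (adjusted p = 0.0371) and Anpep (adjusted p = 0.0344) lower, though both lower calls were lost with 75th percentile scaling. Flt1 was dim on both sham arrays and was lost with the series values. In surviving neurons Flt1 was likewise called higher (adjusted p = 0.0306) and Slco1c1 lower (adjusted p = 0.0270). Those calls were both lost with the series values, and that of Slco1c1 also with 75th percentile scaling. Astrocyte markers (8 of 9 measured, Slc1a3 brightest) summed to 869 and 1019 on the naive, 1475 and 927 on the sham, 499 and 516 on the surviving, and 1222 and 553 on the dying arrays, yet Gja1 fell in both surviving and dying neurons (adjusted p = 0.0178 and 0.0144) and Slc1a2 fell in dying neurons (adjusted p = 0.0092). Of 7 tested, 0 were called higher, with 1 lower in surviving and 2 in dying neurons, beside 18.9% and 44.1% of all probes called. Gfap was above sham without passing (1.49 and 0.70), as was Vim, tested only through the injured arrays (adjusted p = 0.233 and 0.229). Aqp4, Slc1a3 and Aldoc were below sham without passing in both. Fibroblast and meningeal genes, led by Pdgfrb, which is in the vessel list too and made up most of this sum on dying replicate 1, summed to 217 on dying replicate 1 and to between 38.4 and 74.2 on the other arrays. Interneuron genes, led by Cck, summed to 7031 on dying replicate 1 and to between 1657 and 2561 elsewhere, although Gad1 and Pvalb of this list were called lower in dying than in sham neurons (adjusted p = 0.0037 and 0.0322). Gad1 was well above background in sham but not in dying neurons, so the filter favoured its direction, and the Pvalb call was lost with 75th percentile scaling. Gad2, tested only through the dying arrays, Npy (1.10), Cck (0.94) and Sst (0.43) were above sham without passing, Slc32a1 (-0.61) and Vip (-0.29) below. With 75th percentile scaling 2 of 8 tested were higher and 1 lower, and with the series values 3 and 1. Of all probes, 7050 of 25623 and 7359 of 25641 were called higher under these settings. In surviving neurons Gad1, again tested only through sham, was lower (adjusted p = 0.0284), but not with 75th percentile scaling. Oligodendrocyte genes, led by Mog, summed to 61.1 and 66.9 on the surviving arrays and to 74.8 on dying replicate 2, against 180 to 317 on the remaining arrays, and Mal fell by 3.16 in surviving (adjusted p = 0.0079) and by 3.72 in dying neurons (adjusted p = 0.0019). Mog fell by 2.99 in surviving (adjusted p = 0.0278) and Mobp by 1.61 in dying neurons (adjusted p = 0.0402). With 75th percentile scaling 1 oligodendrocyte gene was called lower in each comparison. The precursor list, led by Olig1, summed to 1012 on dying replicate 1 and to between 252 and 578 on the others. Pdgfra of this list fell by 2.63 in surviving neurons (adjusted p = 0.0477), a call lost with 75th percentile scaling. In multiples of the array median, Mmp9, Timp1 and Timp2 were highest on dying replicate 1. So were the sums for microglia, vessel, fibroblast, interneuron and precursor genes, sums that a few bright genes carry. All these values share the division by that array's low median, 19.2 against 52.6 on dying replicate 2. Before it, the processed signal on dying replicates 1 and 2 was 36105 and 69440 for Timp1 and 27476 and 34283 for Timp2. For Mmp9 it was 449 and 400, with 547 on surviving replicate 1. The part of this division, and that of other cells, in the results for Timp1, Timp2, Mmp9 and Mmp14 was not tested.

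**Figure D5:**
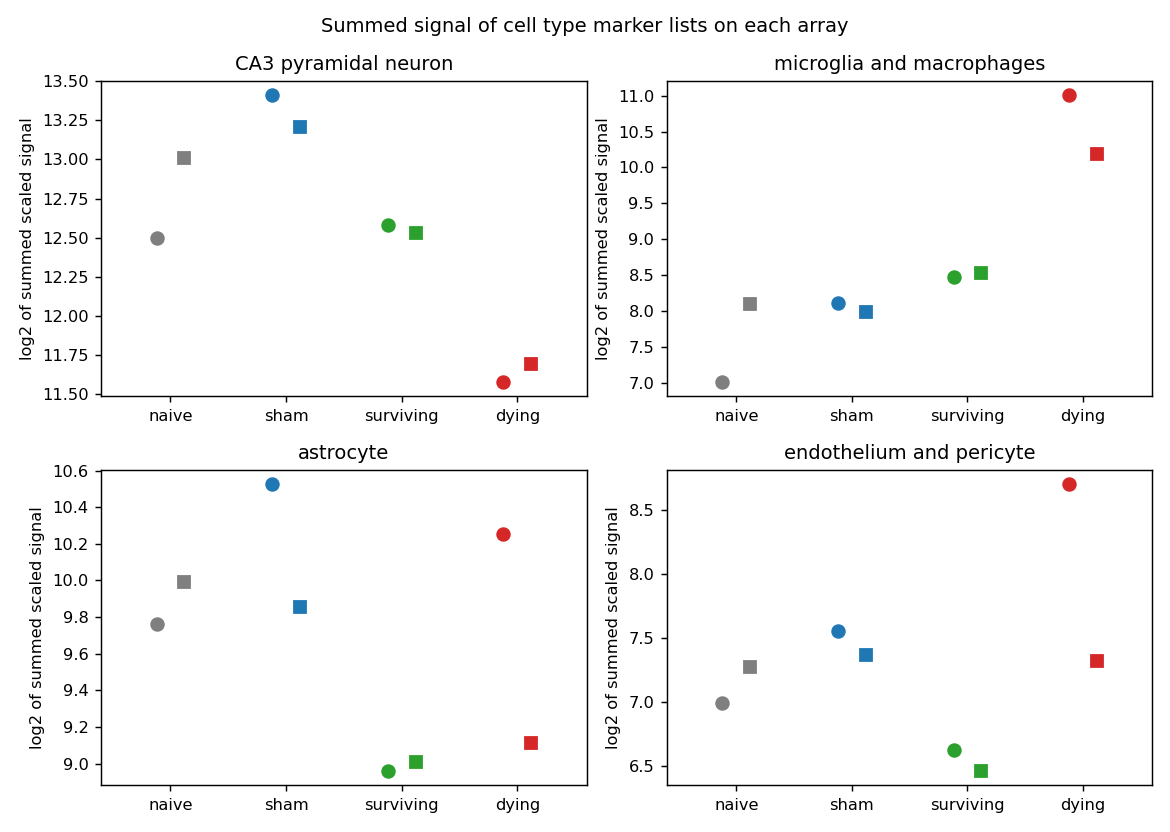
Panels give 4 marker lists, with log2 of the summed signal in multiples of the array median on the vertical axis and the groups on the horizontal axis. Circles are replicate 1 and squares replicate 2. Microglial and macrophage genes summed to 2053 and 1171 on the dying arrays and to at most 369 elsewhere, and the CA3 pyramidal sum, most of it Nrgn, was 3059 and 3312 there.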

How the data were processed

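Labelled RNA of 8 pools of laser-captured CA3 neurons was hybridized to single-colour Agilent rat arrays (41012 probes). Per the file headers, the authors extracted each intensity with Agilent Feature Extraction 9.1.3.1, which subtracts background to give the processed signal. The authors also deposited a series table of signal values, which for signals above 20 is close to the processed signal divided by 1 constant per array, with column medians of 0.131 to 0.282 and no centring by gene. Dimmer probes can depart from it. Here, non-uniform spots were dropped, spots of a probe averaged, divided by the array median as in the authors' methods, floored at 0.01 and log2-transformed. limma 3.58.1 in R 4.3.3 fitted all 4 groups (4 residual degrees of freedom), 2-sided, with Benjamini-Hochberg adjustment over all probes tested in a comparison at 0.05. Tested probes had the software's above-background flag on both arrays of either group compared. The fit was tested on simulated data. A gene is led by its brightest probe. Named list genes were the up to 4 called with the largest differences per list and comparison, given for both injured groups where called, and the 3 closest patterns per member were those with the highest r. Members and lists were chosen with earlier results of these data known. Alternatives covered scaling, background correction, the series table, the filter, spots, floor, arrays fitted, spread, a replicate block and each array left out. A scaling to the probes above background on all 8 arrays was chosen after seeing the data.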

Additional observations from a re-analysis of the deposited data

How the results depend on the processing

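Counts of member probes called in surviving minus sham moved from 1 to 3 with 75th percentile scaling, 2 with quantile normalization, 0 with normexp background correction, 4 with the series table, 3 with only the 4 arrays compared and 4 with the added scaling, and lay between 0 and 1 with each array left out. In dying minus sham they moved from 3 to 5 with 75th percentile scaling, the series table and the added scaling, to 4 with quantile normalization, to 2 with only the 4 arrays compared and without the filter on dim probes, and to 0 with normexp, and lay between 1 and 4 with each array left out. With arrays left out, surviving minus dying gave 0 to 1. Where a group kept 1 array, that array was assumed to vary like the other groups. Of all probes, 21.0% and 46.1% were called in surviving and dying minus sham with the 75th percentile, and 13.8% and 36.2% with quantile normalization. The shares were 21.7% and 45.6% with the series table and 23.8% and 47.6% with the added scaling. With only the 4 arrays compared they were 45.2% and 35.2%, and in dying minus sham without the filter 24.1%. Over all probes, called counts were 5076 and 11289 against sham in surviving and dying neurons, 0 in both with normexp, 12167 in surviving with only 4 arrays, and 253 to 8557 and 3050 to 13437 with arrays left out. In surviving minus dying 0 became 2 with the series table and 6002 without dying replicate 2. In sham minus naive 0 became 118 with only 4 arrays, 22 without either dying array and 1 with quantile normalization.

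At an unadjusted p under 0.05, members moved from 2 to 5, 4, 5 and 5 in surviving minus sham (75th percentile, quantile, series table, added scaling; 1 to 2 with arrays left out). In dying minus sham they moved from 3 to 5 under those 4 settings and with probes above background on all 4 arrays, and to 1 with normexp. Over all probes, the 4 settings gave 9642, 8340, 9786 and 10155 of 26905 in surviving minus sham (26913 for the series table). In dying minus sham they gave 14228, 12639, 14121 and 14416 of 25623 (25641 for the series table). Probes above background on all 4 arrays gave 8599 of 16180 there, and normexp 2342 of 25623. Normexp gave 0 in surviving minus dying and 0 in sham minus naive, from 1 each. With arrays left out these 2 counts ran from 0 to 1 and from 0 to 3. Of all 8 probes, groups failed to overlap for 3 in surviving minus dying (0 with normexp, 3 to 7 with arrays left out), 5 in dying minus sham (3 with normexp) and 3 in sham minus naive (1 with the added scaling, 3 to 7 with arrays left out). With 1 array left in a group, failing to overlap is easier. The share of all probes under normexp, the added scaling or with arrays left out is not given here. Whether the member counts under those settings exceed that share was therefore not tested. With median scaling and all arrays, 30% of all tested probes lay above and 21.7% below in surviving minus dying. In dying minus sham 30.8% lay above, and in sham minus naive 38.0%, with the share below not given for these comparisons.

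Of 644 differences under alternatives 602 kept their sign and 42 changed it, 27 of them in probes tested both ways and 15 in the untested Mmp3 and Timp3 or the Mmp2 mean over probes. A call was lost in 19 and gained in 21. The cause was not tested. In surviving minus dying, normexp gave Timp3 -0.052, Mmp14 1.08, Mmp2 probe 2 0.56, Timp1 0.22 and Mmp9 0.68. With each array left out, Mmp14 ran from -0.438 to 0.0762, Mmp2 probe 2 from -0.93 to 0.43 and Mmp9 from -1.40 to 0.22. In dying minus sham, Mmp2 probe 1 was 0.65 with the 75th percentile, 0.56 with quantile normalization, 0.14 with normexp, 0.72 with the series table, 0.93 with the added scaling, and -1.20 to 1.04 with each array left out, with 0.77 without dying replicate 1. In sham minus naive, Timp2 was -0.0288 with the 75th percentile, -0.19 with quantile normalization, -0.0666 with the series table and -0.16 with the added scaling. Mmp2 probe 1 was 0.22 with normexp and 0.000814 with non-uniform spots kept. With each array left out it ran from -1.16 to 1.08, Mmp14 from -0.24 to 1.18, Timp2 from -0.37 to 0.89 and Mmp9 from -0.53 to 2.23.

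With the replicate number as a block, member calls stayed at 1 in surviving minus sham, 3 in dying minus sham and 0 in the other comparisons, with Timp1 at 3.46 (adjusted p = 0.029) and 4.75. Over all probes the block gave 3488 and 10406 calls against sham. Deviations of same-numbered arrays had r between -0.19 and 0.07 over 15250 probes. No pairing by number was established, and which pools share rats is not given in the sources used here. Signal over background, under 2 for Mmp3, limits what can be read for it.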
